A study of Mus musculus with 6 samples.

Results

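The genes described here are 10 genes of the YAP and TEAD pathway: the coactivator genes Yap1 and Wwtr1, the transcription factor gene Tead1, the regulator genes Lats2, Amotl2 and Ajuba, and the target genes Ankrd1, Ccn1, Ccn2 and Arhgap29. They were picked from the table of counts by symbol, as genes of this pathway, because Arhgap29 and Ccn1 were higher in the libraries with a Cdk10 guide. The same contrast therefore chose them, and their differences between the groups are given as a description, without p-values and with nothing concluded from the number that passed the threshold used for all genes. All 10 were found among the 57010 identifiers of the table, and all 10 were among the 13442 genes whose counts were high enough to be tested.

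In the Hippo pathway the kinases MST1 and MST2 activate LATS1 and LATS2, which phosphorylate YAP and its paralog TAZ, the product of Wwtr1, and hold them in the cytoplasm. When the kinases are inactive, YAP and TAZ enter the nucleus, where they bind DNA through the TEAD factors and switch on genes such as Ccn1, Ccn2 and Ankrd1. Activity is set by phosphorylation, location and protein stability, none of which an mRNA count measures. In the gut epithelium YAP and TAZ are known for their part in regeneration and in tumour growth.

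The RNA came from the mouse colon carcinoma line CT26 and was sequenced as 2 groups of 3 libraries. The cells of the first group carried a control guide (sgControl), and those of the second a guide against Cdk10 (sgCdk10), which encodes a cyclin-dependent kinase. No other genotype, treatment or time is given, nor the guide sequences, the site they target, or whether the cells were a clone or a pool. The labels do not tell whether the 3 libraries of a group are separate cultures. Each p-value given here sets the group difference against the spread between libraries, and that spread may therefore be technical only.

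Totals lay between 17532202 and 19258309 counts per library. For Cdk10 itself the sgControl libraries held 381, 344 and 365 counts and the sgCdk10 libraries 204, 227 and 202 (log2 fold change -0.82, SE 0.08; edgeR adjusted p = 8.4e-09). On the second principal component, with 16.5% of the variance, sgControl replicate 3 stood apart, and its counts differed from those of sgControl replicates 1 and 2 by a chi-square of 4.08 and 4.14 per degree of freedom, against 1.53 to 1.61 for the other pairs within a group. Results are therefore also given without it where they move.

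TEAD factors bind the hexamer GGAATG, and the promoters of the members are shown here because they hold it unequally. RefSeq on GRCm38.p6 gave 11 promoter windows for 8 members and no window for Tead1 and Ccn2. The 250 bases before each start site were searched on both strands. GGAATG was present in 7 of the 11 windows, and in 4148 of 32817 windows of all genes (12.6%). Counted by gene it was present for 6 of the 8 members and for 3875 of 26994 genes (14.4%). The matches, with 12 bases on either side, are printed on the strand that reads GGAATG, which is in capitals:
Yap1, chr9:8004720-8004749, minus strand: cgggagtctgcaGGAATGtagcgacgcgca
Wwtr1, chr3:57576029-57576058, minus strand: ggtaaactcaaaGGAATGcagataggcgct
Amotl2, chr9:102717727-102717756, minus strand: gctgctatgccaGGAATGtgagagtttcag
Ajuba, chr14:54577830-54577859, plus strand: gaggggcactgtGGAATGtatccatcaacg
Ajuba, chr14:54577808-54577837, plus strand: ttgtttacagttGGAATGcgcggaggggca
Ankrd1, chr19:36120037-36120066, minus strand: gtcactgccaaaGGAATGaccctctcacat
Ankrd1, chr19:36119950-36119979, minus strand: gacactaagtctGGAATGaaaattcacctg
Ccn1, chr3:145650071-145650100, plus strand: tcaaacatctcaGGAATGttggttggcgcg
Ajuba and Ankrd1, with 1 window each, had 2 matches, and 334 of the 32817 windows (1.02%) had at least 2. The matches began 141 bases before the start site of Yap1, 136 before the first of 2 starts of Wwtr1, 65 before Amotl2, 186 and 164 before Ajuba, 210 and 123 before Ankrd1, and 103 before Ccn1. For Ankrd1 all 250 bases lie in exons of GENCODE transcripts, and for Amotl2 136 do. For Ajuba the RefSeq start lies outside the GENCODE gene.

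Lats2 and Arhgap29, the member with the largest difference between the groups, had no match in these windows, which says only that the letters are not there. The Ccn1 stretch, chr3:145649986-145650235, and the part outside exons of the first Arhgap29 stretch, chr3:121953006-121953228 (both GRCm38.p6), are shown side by side for that contrast. Each is printed on the strand of its gene and ends at the base before the start site, with the TEAD hexamer in capitals, which reads CATTCC on the Ccn1 strand:
Ccn1: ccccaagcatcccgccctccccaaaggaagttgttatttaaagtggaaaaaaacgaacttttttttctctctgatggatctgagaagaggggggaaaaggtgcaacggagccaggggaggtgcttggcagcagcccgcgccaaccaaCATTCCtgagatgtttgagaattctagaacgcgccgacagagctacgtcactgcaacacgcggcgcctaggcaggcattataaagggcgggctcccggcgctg
Arhgap29: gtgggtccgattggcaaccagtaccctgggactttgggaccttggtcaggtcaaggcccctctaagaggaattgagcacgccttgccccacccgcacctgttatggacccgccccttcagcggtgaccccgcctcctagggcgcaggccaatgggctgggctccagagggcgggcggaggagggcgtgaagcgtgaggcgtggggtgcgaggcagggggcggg
The AP-1 motif TGANTCA was found for 0 of the 8 members and for 2112 of all genes (7.82%). The CArG box, the site of serum response factor, was found for 0 of the 8 and for 439 of all genes (1.63%). No TEAD match of a member therefore overlapped either motif. A match is a description of sequence and does not show binding.

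The larger differences between the groups lay in the members listed here as targets. These roles are labels and not exclusive. Lats2, listed as a regulator, is also known as a target and had a log2 fold change of only 0.08. The same double role may hold for other listed regulators. The split between targets and the other members therefore depends on how the genes were labelled, and nothing is read from it. Ankrd1, Ccn1, Ccn2 and Arhgap29 were 1.4-fold to 3.07-fold higher in sgCdk10, and in each of them every sgCdk10 library lay above every sgControl library. Yap1, Wwtr1, Tead1, Lats2, Amotl2 and Ajuba differed by 1.03-fold to 1.08-fold. Levels are in CPM, counts scaled to a common library total with TMM factors, and log2 fold changes are sgCdk10 over sgControl.

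Yap1 encodes the coactivator YAP (ENSMUSG00000053110, chr9:7931999-8004596, minus strand; this and the other gene positions are GRCm38, GENCODE M21). Its level was 105, 108 and 109 CPM in sgControl and 107, 112 and 112 CPM in sgCdk10. The groups overlapped, and the log2 fold change was 0.04 (SE 0.03). Wwtr1, which encodes TAZ (ENSMUSG00000027803, chr3:57455649-57575910, minus strand), had 178, 180 and 180 CPM in sgControl and 195, 190 and 194 CPM in sgCdk10. The groups did not overlap, and the log2 fold change was 0.10 (SE 0.03). Tead1 is among the genes of the TEAD factors, which bring both coactivators to DNA (ENSMUSG00000055320, chr7:112679318-112906807, plus strand). It had 222, 215 and 224 CPM in sgControl against 232, 240 and 239 CPM in sgCdk10, a log2 fold change of 0.10 (SE 0.03), and its groups did not overlap.

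Lats2 encodes the kinase that phosphorylates YAP and TAZ and is itself known as a gene they switch on (ENSMUSG00000021959, chr14:57689662-57758388, minus strand). It had 32.4, 35.8 and 35.5 CPM in sgControl and 36.4, 37.3 and 36.1 CPM in sgCdk10. The groups did not overlap, though their nearest libraries, at 35.8 and 36.1 CPM, were almost level, and the log2 fold change of 0.08 (SE 0.05) became 0.04 without sgControl replicate 1. In GENCODE 42.4% of the Lats2 exon length is shared with Gm49361 on the same strand, which had 0 counts in every library. Reads of the shared part may have been counted for neither gene, so the level of Lats2 may be too low. Amotl2, an angiomotin that binds YAP at cell junctions (ENSMUSG00000032531, chr9:102716672-102733418, plus strand), had 70.4, 69.9 and 63.9 CPM in sgControl and 69.1, 72.9 and 71.1 CPM in sgCdk10. The groups overlapped, and the log2 fold change of 0.06 (SE 0.04) became 0.01 without sgControl replicate 3, the lowest library. Ajuba, a LIM protein that restrains LATS kinases (ENSMUSG00000022178, chr14:54567472-54577558, minus strand), had 95.2, 94.6 and 93.4 CPM in sgControl and 102, 100 and 102 CPM in sgCdk10. These groups did not overlap, with a log2 fold change of 0.11 (SE 0.03).

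Arhgap29 differed most. It encodes a GTPase-activating protein that acts downstream of Rap and is known as a YAP target (ENSMUSG00000039831, chr3:121952541-122016753, plus strand, 21 merged exons). The sgControl libraries held 599, 601 and 623 of its counts and the sgCdk10 libraries 1878, 1872 and 1997, or 33.8, 33.9 and 34.3 CPM against 104, 106 and 104 CPM. The libraries within each group lay close together, and the groups were far apart. The log2 fold change was 1.62 (SE 0.04), or 3.07-fold, and 22nd in rank from the highest of all genes tested.

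Ccn1, formerly Cyr61, encodes a secreted matrix protein that binds integrins (ENSMUSG00000028195, chr3:145646976-145649981, minus strand, 5 merged exons). It had 102, 105 and 101 CPM in sgControl and 181, 178 and 173 CPM in sgCdk10. The groups were clearly separate, with a log2 fold change of 0.79 (SE 0.03), or 1.73-fold. Ccn2, formerly Ctgf, encodes the connective tissue growth factor (ENSMUSG00000019997, chr10:24595442-24598683, plus strand). It had 30.3, 32 and 29.7 CPM in sgControl and 42.9, 44.4 and 41.8 CPM in sgCdk10, a log2 fold change of 0.49 (SE 0.05), or 1.4-fold. On the opposite strand Gm15270 shares 23.2% of the Ccn2 exon length and had at most 1 count in a library. Without the strand setting, it is not known whether reads of the shared part were counted for Ccn2. Ankrd1, an ankyrin repeat protein of muscle and of stretched cells (ENSMUSG00000024803, chr19:36111961-36120099, minus strand), had 72, 72.2 and 78.2 CPM in sgControl and 110, 112 and 105 CPM in sgCdk10. The library nearest to the sgCdk10 group was sgControl replicate 3, and the log2 fold change of 0.55 (SE 0.04), or 1.47-fold, became 0.59 without it. Without the same library the other 3 targets had log2 fold changes of 1.62 for Arhgap29, 0.78 for Ccn1 and 0.46 for Ccn2.

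**Figure D1:**
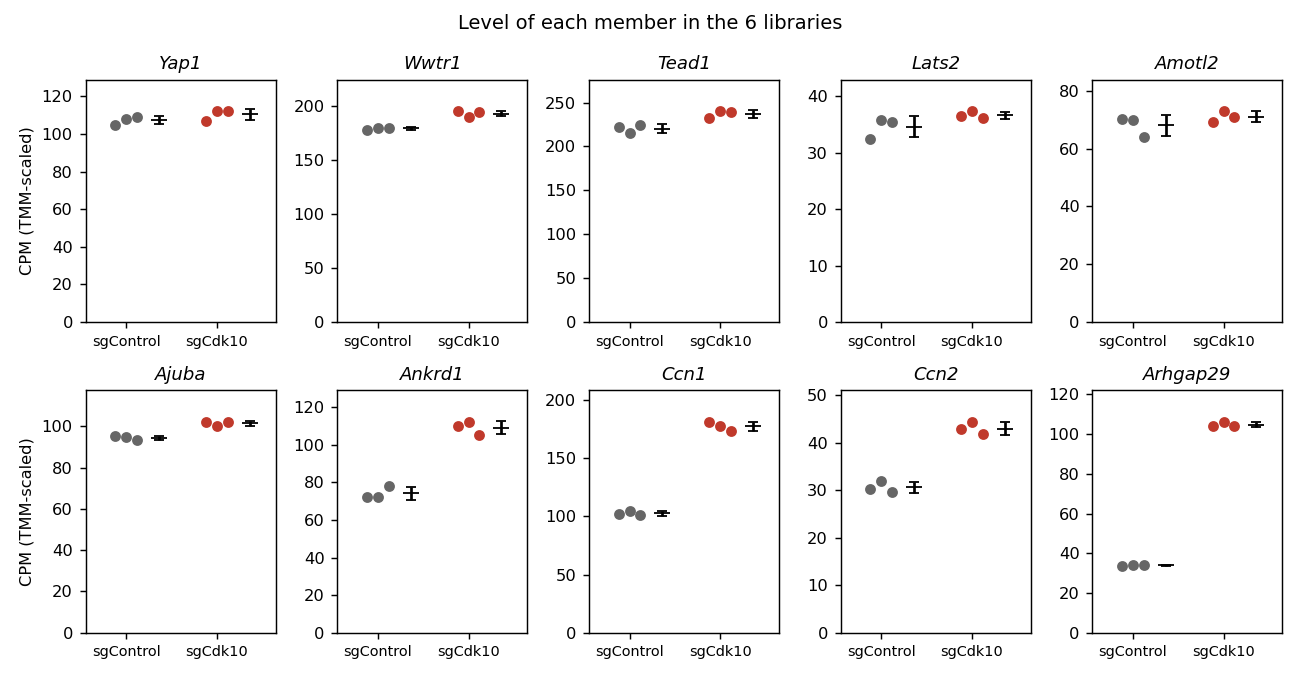
Level of each of the 10 members in the 6 libraries, in TMM-scaled CPM on axes that start at 0; points are libraries, and the bar beside them is the mean with the SD (n = 3). The groups are far apart for Ankrd1, Ccn1, Ccn2 and Arhgap29 (34 against 105 CPM on average) and close or overlapping for the other 6.

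The plot of levels by library shows why a small difference can still lie outside the spread. The SD of a group was 0.283 to 4.67 CPM in sgControl, so the 1.07-fold difference of Wwtr1 (179 ± 1.22 against 193 ± 2.67 CPM, SD, n = 3) exceeded it. In CT26 RNA taken in bulk, fewer cells that express a gene and less RNA per cell cannot be told apart.

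**Figure D2:**
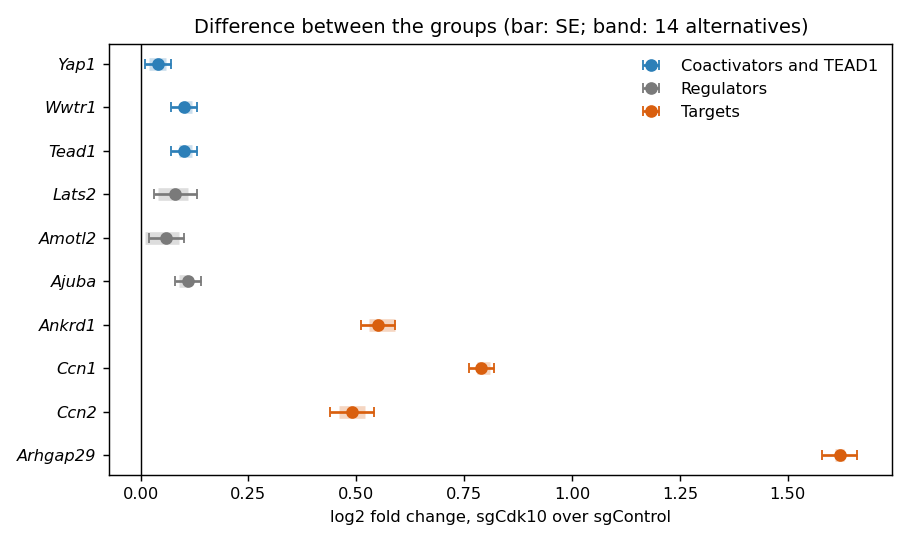
log2 fold change of each member with its standard error (bar), coloured by role; the pale band spans the values under 14 alternative settings. The members listed as targets lie between 0.49 and 1.62, and the other 6 members between 0.04 and 0.11.

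Across the 10 members the median log2 fold change was 0.10, against -0.00 over all 13442 genes tested. In the edgeR fit over all genes 5717 were called at an adjusted p of 0.05 (42.5%), 22.1% higher and 20.4% lower, and 7 of the 10 members lay among those higher and 0 among those lower. In 8 of the 10 members the sgCdk10 libraries all lay above the sgControl libraries, as they did in 26.6% of all genes tested. Since this contrast chose the members, these counts are no test of them and nothing is read from them. The plot of fold changes by role shows where the members sit: 95% of all genes tested had a log2 fold change under 0.55, a value that Ankrd1 reached and Ccn1 and Arhgap29 passed, while the other 6 members, at 0.04 to 0.11, lay between the 25th and 75th percentiles (-0.16 and 0.16), and Ccn2 at 0.49 just under the highest 5%.

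Levels can be compared between genes only per length, here as CPM per kilobase of merged exons. In sgControl the order ran from Ccn1, at 50.8 ± 0.913 CPM per kilobase (SD, n = 3), through Wwtr1 (37.6 ± 0.254), Ajuba (25.9 ± 0.248), Ankrd1 (25.7 ± 1.23), Tead1 (16.3 ± 0.344), Yap1 (11.6 ± 0.209), Amotl2 (10.8 ± 0.574), Ccn2 (10.7 ± 0.412) and Lats2 (4.96 ± 0.275) to Arhgap29 (3.86 ± 0.0321). Ajuba and Ankrd1 overlapped between libraries, as did Amotl2 and Ccn2, so neither pair has an order. Arhgap29, the lowest of the 10 in sgControl, reached 11.9 ± 0.186 CPM per kilobase in sgCdk10, where its libraries overlapped those of Yap1 (11.9 ± 0.277). There Ankrd1 (37.8 ± 1.23) lay above Ajuba (27.9 ± 0.281), and Ccn2 (15 ± 0.453), which was below Yap1 in sgControl, lay above Yap1 and Amotl2 (11.3 ± 0.305). Ccn1 (87.9 ± 1.95), Wwtr1 (40.4 ± 0.559) and Tead1 (17.5 ± 0.294) held the same places in both orders, and Lats2 was lowest in sgCdk10 at 5.25 ± 0.0904. The levels of Lats2 and Ccn2 may be too low, as reads shared with overlapping genes may not have been counted.

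Most members have paralogs with the same role, and the shares of the members in their families differed by at most 2.8 percentage points between the groups. The groups did not overlap in the shares of Yap1, Wwtr1, Lats2, Amotl2, Ajuba, Ccn1 and Ccn2, and overlapped in that of Tead1. Shares are percentages of the family's reads per kilobase and are given as descriptions. Yap1 made up 23.6 ± 0.218% of Yap1 and Wwtr1 together in sgControl and 22.8 ± 0.608% in sgCdk10 (SD, n = 3). Without division by length its share was 37.5% and 36.4%, so Wwtr1 exceeded Yap1 on both scales. Tead1 made up 28.6 ± 1.08% of the 4 TEAD genes in sgControl and 28.5 ± 0.206% in sgCdk10. Tead2 held 36.5 ± 1.03% and 35.5 ± 0.813%, but the order of these genes depends on the exon lengths. Without division by length Tead1 made up 53% of the TEAD counts in sgControl and 52.6% in sgCdk10. The share of Tead3 was 14.3 ± 0.451% in sgControl and 15.9 ± 0.351% in sgCdk10, without overlap.

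Among the regulators, Lats2 held 34.6 ± 0.795% of the LATS reads in sgControl and 36.5 ± 0.507% in sgCdk10, and Ajuba 74.9 ± 0.84% and 73.3 ± 0.35% of its family. Wtip, the other member of the Ajuba family beside Limd1, had 0 counts in every library. The angiomotins moved more than these. Amotl1 held 41.2 ± 0.456% of the angiomotin reads in sgControl and 47.3 ± 0.456% in sgCdk10. The share of Amotl2 was 32.2 ± 1.02% and 30.1 ± 0.548%, at a level of 68.1 ± 3.61 and 71 ± 1.92 CPM. Ccn1 held 82.6 ± 0.299% of Ccn1 and Ccn2 together in sgControl and 85.4 ± 0.301% in sgCdk10.

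**Figure D3:**
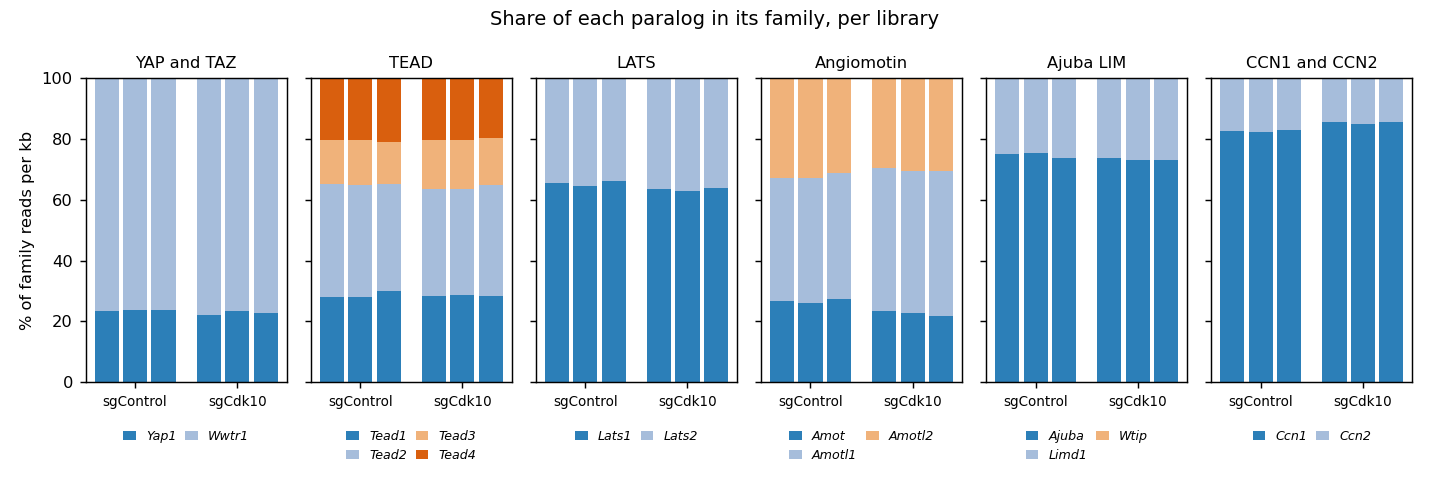
Percentage of each family's reads per kilobase held by each paralog, 1 bar per library, 3 libraries per group. The shift is largest in the angiomotins, where Amotl1 holds 41.2% in sgControl and 47.3% in sgCdk10 on average.

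The plot of shares by paralog shows the largest shift in the angiomotin family. Amotl1 had 140, 141 and 137 CPM in sgControl and 177, 180 and 179 CPM in sgCdk10, and rose (log2 fold change 0.36, SE 0.03; edgeR adjusted p = 9.6e-10). Amot, at -0.08, was not called (edgeR adjusted p = 0.137). Of the other paralogs Tead3 rose by 0.27 on the log2 scale (edgeR adjusted p = 2.7e-05) and Limd1, a LIM protein that like Ajuba binds LATS, rose by 0.22 (edgeR adjusted p = 1.7e-04). Tead2 at 0.07 (edgeR adjusted p = 0.153), Tead4 at 0.07 (adjusted p = 0.232) and Lats1 at -0.04 (adjusted p = 0.539) were not called.

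The Hippo genes outside the 10 were partly higher. This list and those below were chosen with earlier results of these data known, so their counts are no test. Of 36 listed genes 31 were tested, and edgeR called 19 higher and 0 lower and left 12 uncalled. The count of lower genes was also 0 at an unadjusted edgeR p under 0.05, and 0 with DESeq2 and with limma-voom. Over all genes tested 22.1% were called higher and 20.4% lower, and among the 6335 tested genes with a mean of at least 30 CPM, where 25 of the listed genes lie, 28.5% and 28%. The median log2 fold change of the list was 0.17, with a range from -0.19 to 0.37. The 4 with the smallest p were Amotl1, Csnk1e, Ptpn14 and Nf2. Csnk1e encodes casein kinase 1 epsilon, which marks phosphorylated YAP for degradation, and rose from 87.9 ± 2.73 to 114 ± 2.27 CPM (log2 fold change 0.37, SE 0.04; edgeR adjusted p = 6.3e-09). Nf2 encodes Merlin, an upstream activator of LATS, and rose from 133 ± 1.52 to 158 ± 4.61 CPM (0.25, SE 0.03; edgeR adjusted p = 9.3e-07). Ptpn14, a phosphatase that binds YAP, rose from 108 ± 3.14 to 133 ± 2.11 CPM (0.30, SE 0.03; edgeR adjusted p = 8.2e-08). Merlin, PTPN14 and casein kinase 1 epsilon are known as negative regulators of YAP. Of the core kinase module, named here after its values were seen, Stk4 (log2 fold change 0.18), Sav1 (0.24) and Mob1b (0.13) were called higher by edgeR, and Stk3 (0.04), Lats1 (-0.04) and Mob1a (-0.02) were not called. Vgll1, Vgll2, Vgll3, Wtip and Fat4 had at most 3 counts in every library.

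Other known YAP and TEAD targets were mostly higher. Of 22 listed 16 were tested, and edgeR called 13 higher and 1 lower, with a median log2 fold change of 0.26. The called rises ran from 0.08 for Anln and 0.09 for Myof to 0.93 for Tgm2, so some were as small as those of the members that differed least. Over all genes tested 22.1% were called higher, and 27.3% among the 9010 genes with a mean of at least 10 CPM, where 13 of these targets lie. Ptpn14 stands in both lists. This list, too, was chosen with earlier results known, and members known as targets, such as Lats2, are outside it. Its count is therefore no test of the targets as a class. Tgm2, a transglutaminase that crosslinks matrix proteins, had 11.3, 10.9 and 11.5 CPM in sgControl and 20.7, 21.4 and 22.2 CPM in sgCdk10 (0.93, SE 0.07; edgeR adjusted p = 1.1e-10). Of its exon length 8% is shared with Rprd1b on the opposite strand, which had 1329 to 1541 counts in a library. Marcks, a membrane protein that binds actin, rose from 11.7 ± 0.724 to 20.9 ± 0.13 CPM (0.83, SE 0.07; edgeR adjusted p = 9.9e-10). Only Gadd45a, a stress gene of growth arrest, fell among the 16, from 23.8, 28.2 and 24.7 CPM to 13.8, 14.2 and 14.5 CPM (-0.85, SE 0.07; edgeR adjusted p = 7.8e-10). It shares 19.1% of its exon length with E230016M11Rik on the opposite strand, whose counts were also lower (111, 114 and 126 against 48, 45 and 51), and without the strand setting the reads of the 2 cannot be told apart. Asap1 (0.07, edgeR adjusted p = 0.0503) and Rbms3 (0.77, SE 0.32, edgeR adjusted p = 0.0568) were not called. Igfbp3, Fjx1, Foxf2, Nt5e and Dlc1 had at most 3 counts in every library, so part of a textbook target list could not be measured in these cells.

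Of the other CCN genes, 2 were tested, and edgeR called 1 lower and 0 higher (0 higher at an unadjusted p under 0.05, and 0 with DESeq2 and with limma-voom). Ccn4, also called Wisp1, is a secreted protein of the same build and had 1.41, 1.75 and 1.54 CPM in sgControl and 0.938, 0.853 and 0.623 CPM in sgCdk10. It was called lower (log2 fold change -0.96, SE 0.26; edgeR adjusted p = 0.00433). Ccn3 had 2.63 ± 0.313 and 2.11 ± 0.085 CPM (SD, n = 3), and its log2 fold change, -0.32, was not called (edgeR adjusted p = 0.17). Ccn5 and Ccn6 were too low to be tested.

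**Figure D4:**
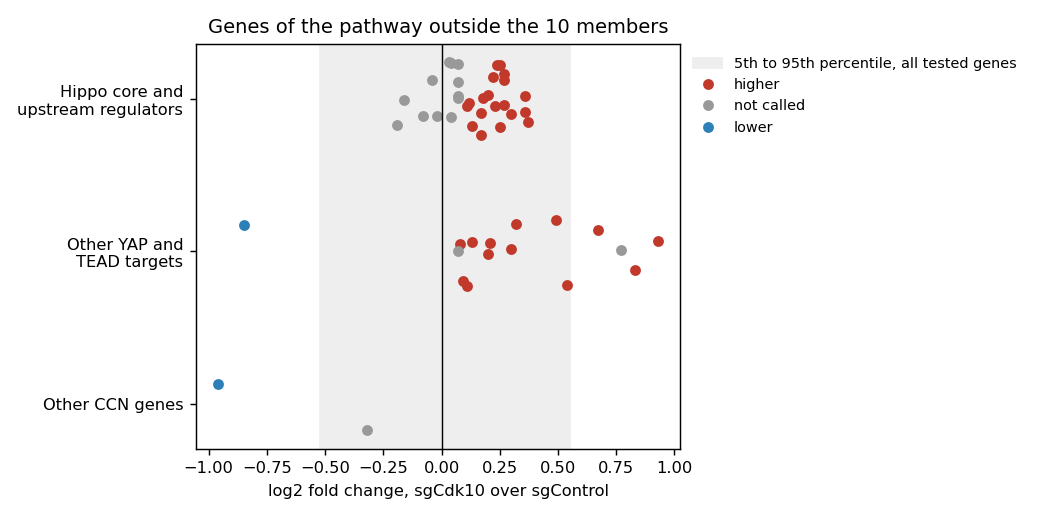
log2 fold change of each tested gene of the 3 pathway lists, 1 point per gene, coloured by the edgeR call; height within a row is arbitrary and the grey band runs from the 5th to the 95th percentile of all tested genes (-0.52 to 0.55). Called Hippo genes lie at 0.11 to 0.37, while the other targets spread from -0.85 to 0.93.

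The plot of the pathway lists shows that most called genes lie inside the band that holds the bulk of all genes, and that only the target list and the CCN genes reach far outside it. Among the genes of the Arhgap family other than Arhgap29, looked at after the values were seen, edgeR called 8 of 23 tested higher and 5 lower, with a median log2 fold change of 0.09, beside 22.1% higher and 20.4% lower over all genes tested. Their values ran from -0.38 (SE 0.10) for Arhgap33 to 0.53 (SE 0.30) for Arhgap15. All lay below Arhgap29, but it was picked for its rise, so nothing is read from this order.

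The genes whose profile over the 6 libraries was most like that of Arhgap29 were found by the root mean square difference of log2(CPM + 0.5), each gene centred on its sgControl mean, over 10554 genes. They were Errfi1, with a difference of 0.0548, Dusp5 (0.0572), Tmem95 (0.081) and Apln (0.1). Errfi1, which encodes a feedback inhibitor of the EGF receptor, had 105 ± 3.54 CPM in sgControl and 306 ± 4.51 CPM in sgCdk10. Dusp5, an ERK phosphatase, had 13.1 ± 0.413 and 41.7 ± 2.1 CPM, and the secreted peptide gene Apln 26.4 ± 1.57 and 74.7 ± 1.46 CPM. Tmem95 had 0.261 ± 0.031 CPM in sgControl, near the floor of 3 counts (0.156 to 0.171 CPM), where the added 0.5 CPM makes its fold look smaller. For Ccn1 the nearest were Sema6b (0.0349), Slc41a1 (0.0363), Arrdc3 (0.0372) and Pdk1 (0.0392). Arrdc3, an arrestin-like protein, had 53.2 ± 0.717 and 94.4 ± 2.8 CPM, and the pyruvate dehydrogenase kinase gene Pdk1 80.5 ± 3.06 and 138 ± 2 CPM. With 2 groups of 3 libraries, likeness is little more than a like fold change.

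Genes near the 4 targets were called in both directions, and their counts are small beside the 22.1% called higher and 20.4% called lower over all genes tested. Neighbours were tested genes that start within 500 kb, chosen after values were seen. Around Arhgap29 edgeR called 2 of 9 higher and 2 lower. F3, the tissue factor gene and itself a listed YAP target, starts 229 kb before Arhgap29 and rose from 15 ± 0.757 to 23.9 ± 1 CPM (0.67, SE 0.07; edgeR adjusted p = 1.2e-08). Bcar3, an adaptor of the p130Cas scaffold, starts 342 kb after it and rose from 55.7 ± 1.86 to 91.4 ± 1.17 CPM (0.71, SE 0.04; edgeR adjusted p = 3.1e-13). Between Arhgap29 and Bcar3, the glutathione synthesis gene Gclm fell from 154 ± 4.63 to 117 ± 2.24 CPM (-0.39; edgeR adjusted p = 7.8e-10). Around Ccn1 4 of 7 were called higher and 1 lower. The closest, Gm17501, starts 0 kb from Ccn1 to the nearest kb and rose by 0.47 (edgeR adjusted p = 0.0165). Ddah1 rose by 0.23 (edgeR adjusted p = 1.4e-04) and Bcl10 by 0.25 (edgeR adjusted p = 1.1e-04). Every called gene but the sparse Col24a1 lay below the 0.79 of Ccn1. Around Ankrd1 1 of 6 was called higher and 1 lower, and around Ccn2 1 of 2 higher.

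**Figure D5:**
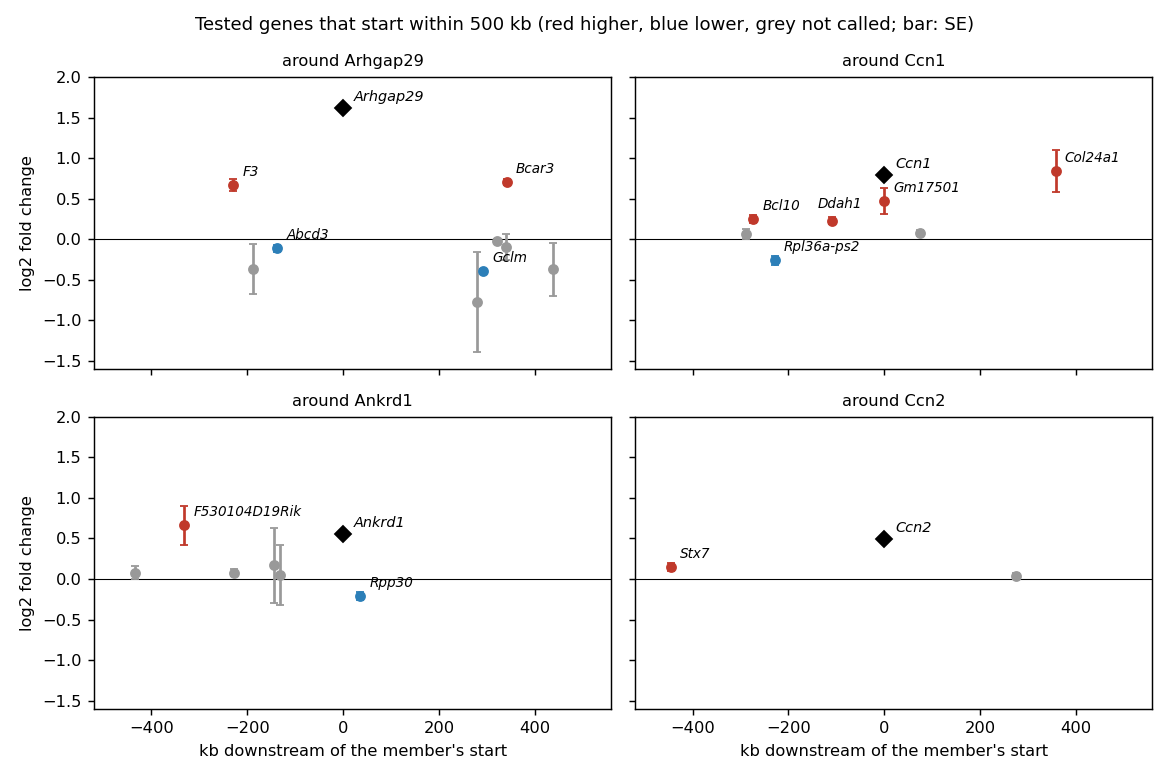
log2 fold change (bar: SE) of tested genes against the distance of their start from the start of Arhgap29, Ccn1, Ankrd1 or Ccn2 (diamond), in kb along the direction of the member's transcription. Called genes of both directions lie around Arhgap29, with F3 at 0.67, Bcar3 at 0.71 and Gclm at -0.39.

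The plot of neighbours by distance shows Arhgap29 at 1.62 and every tested gene within 500 kb of it at 0.71 or less. Since Arhgap29 was picked for its rise, nothing is read from its place above them.

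Markers of cell types were checked beside these results, because the target genes are also expressed by mesenchymal cells. The colon epithelial list did not bear out an epithelial profile, since 4 of its 10 markers had at most 3 counts in every library and Epcam was at 0. Its summed level was 36.7 to 41.2 CPM in sgControl and 58.7 to 59.7 CPM in sgCdk10, carried by Krt18 (log2 fold change 0.65) and Krt20 (0.51), which edgeR called higher. The fibroblast and smooth muscle list summed to 116 to 134 CPM in sgControl and 146 to 150 CPM in sgCdk10. Of its 8 markers Lum, Thy1 and Acta2 were at 0 in every library, and Dcn and Myh11 were too low to be tested. Pdgfra (log2 fold change 0.63) and Col1a1 (0.27) were called higher by edgeR, while Pdgfrb (0.10, edgeR adjusted p = 0.0671) was not called. The summed level of 8 endothelial markers was at most 1.13 CPM, with 7 at or under 3 counts, and that of 8 leukocyte markers at most 0.282 CPM, with all 8 at or under 3 counts. The keratin and fibroblast sums moved with the target genes, and their part in the result was not tested.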

How the data were processed

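RNA-seq counts of 3 sgControl and 3 sgCdk10 libraries of CT26 cells were used, grouped and numbered by library title. The authors deposited 1 table of raw counts per Ensembl gene. The submitters' processing notes name the build mm10 and the tools DESeq2 1.40.2, featureCounts 2.0.3 and HISAT2 2.2.1, without their roles. The strand setting and annotation release were not given in the sources used here. Symbols, positions and exon lengths came from GENCODE M21.

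Genes were filtered with edgeR 4.0.16 (filterByExpr, minimum count 10, minimum total 15), scaled by TMM and tested with the robust quasi-likelihood test, group as the only term, Benjamini-Hochberg threshold 0.05. The scripts were tested on simulated data. The members and all lists were chosen with earlier results of these data known. Besides the members, the rule named Cdk10, the 4 genes of each pathway list with the smallest p, and the 4 genes most like Arhgap29 and Ccn1, among symbols that are no predicted model, with a mean of at least 1 CPM. Part of what this rule covers is not reported here. Other genes were named after their values were seen, as paralogs, by role or as neighbours. Alternatives were RLE factors, library totals only, no filter, at least 1 CPM in each library of either group, dispersions without robust estimation, limma-voom (limma 3.58.1), DESeq2 1.42.0, a replicate block and leaving out each library. A planned comparison of protein sequences was not run, since no protein table was used here.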

Additional observations from a re-analysis of the deposited data

How the results depend on the processing

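Under 14 alternatives, all 140 log2 fold changes of the 10 members stayed above 0. Of 15 other genes, Cdk10 and those named from the pathway lists, all 210 kept their direction and their side of the threshold. The genes most like Arhgap29 and Ccn1 were not included. Arhgap29 ranged from 1.61 to 1.63, Ccn1 from 0.78 to 0.81, Ankrd1 from 0.53 to 0.59, Ccn2 from 0.46 to 0.52, Amotl2 from 0.01 to 0.09, Lats2 from 0.04 to 0.11 and Yap1 from 0.02 to 0.06. Genes called higher numbered 6 to 7 among the members (6, without Ajuba, with DESeq2 and without sgCdk10 replicate 1), 18 to 19 in the Hippo list and 11 to 14 in the target list. Among all genes, 2191 were called higher with DESeq2, 2537 without sgCdk10 replicate 1 and 2970 (22.1%) in the main fit. Since this contrast chose the members, nothing is read from their counts. Over all genes, calls ran from 4179 with DESeq2 to 6056 without sgControl replicate 3, and leaving out 1 library at a time gave 4791 to 6056. The median of all genes moved by less than 0.1 on the log2 scale under each scaling. Same-numbered libraries had correlations of 0.025, -0.057 and -0.096, and some libraries had their highest correlation with another number. No pairing by number was therefore seen, though this cannot tell whether same-numbered libraries were prepared together. With the replicate block 5481 genes were called, 5418 of them among the 5717 called without it in the same direction. The paralog shares depend on the exon lengths of GENCODE M21. Those with Lats2 or Ccn2 also depend on how reads shared with an overlapping gene were counted. At this depth genes at or under 3 counts per library could not be assessed.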
